A study of Canis lupus familiaris with 12 samples.

Results

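RAB proteins are small GTPases that direct membrane vesicles between compartments of the cell. The mRNA of 8 RAB genes was followed in Mi/CMM1, a line of dog oral melanoma cells. A list of 10 RAB genes was searched by the dog RefSeq transcript that the array design gives for each probe. RAB1A, RAB2A, RAB5A, RAB5C, RAB7A, RAB8A, RAB10 and RAB11A were found, on 14 of the 43603 distinct probes of the array. No probe was matched to RAB9A or RAB12, and neither was analysed here. Each of the 14 probes cleared the scanner's background call on 12 of 12 arrays, so none was lost to the filter on dim probes.

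The study used one-colour Agilent arrays, 3 for each of 4 groups. The groups were untreated Mi/CMM1 cells and Mi/CMM1 cells given piroxicam, carprofen or robenacoxib, which are nonsteroidal anti-inflammatory drugs that inhibit cyclooxygenases. By the sample labels piroxicam was given at 116 µM, carprofen at 779 µM and robenacoxib at 156 µM, all for 6 h. The treatment protocol instead gives 779 µM for piroxicam, 116 µM for carprofen and 24 h, and this conflict was not settled. The drug doses differ in either version, and the control label names no vehicle. All groups are cultures of 1 cell line. The series design calls the replicates biological without saying how the cultures were separated, so the p-values measure the spread between these arrays.

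A RAB protein is switched on when it binds GTP and off when it hydrolyses it. In the active state it sits in a membrane through lipid groups on its tail and recruits motors, tethers and fusion factors. Each family member marks its own step. RAB1A and RAB2A act between the endoplasmic reticulum and the Golgi, RAB5A and RAB5C on early endosomes, RAB7A on late endosomes and lysosomes, RAB11A on recycling endosomes, and RAB8A and RAB10 on carriers bound for the plasma membrane. In pigment cells RAB proteins also sort and move melanosomes.

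Levels are log2 of the signal relative to each array's 75th percentile, and a change is a difference of group means on that scale. Standard errors (SE) and adjusted p-values are from limma with Benjamini-Hochberg adjustment over 31998 tested probes, and a change is called at an adjusted p below 0.05. The choice of reference matters. Scaled instead to the transcripts spiked in during labelling, the median change of all tested probes moved from -0.02 to 0.152 with piroxicam, from -0.0227 to 0.322 with carprofen and from -0.0298 to 0.27 with robenacoxib. A gene described as lower is therefore lower against that percentile of its array, not in an absolute amount of RNA. The controls shared slide 1 with carprofen 1, carprofen 2 and 3 shared slide 2 with piroxicam 1 and 2, and piroxicam 3 shared slide 3 with the robenacoxib arrays. In a fit with slide as a block, called the slide-blocked fit, carprofen against control rests on slide 1 and carprofen against piroxicam on slide 2, while piroxicam and robenacoxib reach control only through a chain of slides. Between 66.2% (piroxicam 3) and 80.0% of spots were well above background. Of the melanocyte markers MITF was well above background on 12 of 12 arrays, MC1R on 8, and EDNRB and the pigment enzyme gene TYR on 0. KIT was well above background on 4 arrays on its brightest probe and on 0 on its others. So of the defining markers of a pigment cell MITF was measured and TYR was not above background. The endothelial marker VWF and the leukocyte markers CD4 and CD8A (brighter probe) were also well above background on 12 of 12 arrays. Their control means were 0.35, -4.07 and -5.11, beside -0.55 for MITF. The endothelial marker KDR was well above background on 0. The summed level of 8 melanocyte marker probes was 0.861 to 0.884 times the array's 75th percentile in control, 0.836 to 0.871 with piroxicam, 0.8 to 0.816 with carprofen and 0.909 to 0.915 with robenacoxib. This sum was mostly MITF, whose probes had control means of -0.55 and -2.77, beside -5.72 for MC1R. MC1R did not follow the sum. It was higher with carprofen than with piroxicam by 1.82 (adjusted p = 0.0126), not called in the slide-blocked fit (adjusted p = 0.081). The collagen genes COL1A1 and COL1A2, fibroblast markers, were well above background on every array, and the summed level of 14 fibroblast marker probes was 151 to 154 times the array's 75th percentile in control, 140 to 144 with piroxicam, 132 to 138 with carprofen and 143 to 145 with robenacoxib. The fibroblast sum was mostly COL1A2, whose brightest probes had control means of 6.00 and 5.85, beside 3.41 for the brightest of COL1A1. DCN, also a fibroblast marker, had a control mean of -5.26 on its brighter probe. Its other probe was well above background on 2 of 12 arrays. On the brighter probe DCN changed by -0.42 with piroxicam (adjusted p = 0.0184), -0.16 with carprofen (adjusted p = 0.317) and -0.35 with robenacoxib (adjusted p = 0.0457). In the slide-blocked fit none of these was called (adjusted p = 0.124, 0.245 and 0.302). PDGFRB, on the same list, went the other way on its brighter probe, with changes of 0.51 for piroxicam (adjusted p = 0.0238; 0.10 in the slide-blocked fit, adjusted p = 0.825), 0.40 for carprofen (adjusted p = 0.0512) and 0.27 for robenacoxib (adjusted p = 0.204). The part of such differences in the RAB results was not tested.

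The RAB genes changed little, and the changes that passed were mostly downward relative to the array. Each gene was read on its brightest probe. With piroxicam RAB1A, RAB2A, RAB5A, RAB7A and RAB11A fell, 5 of 8 genes (62.5%). Of all tested probes 27.8% were called, 12.2% higher and 15.6% lower. All 8 means lay below control with piroxicam on this scale. The share of all tested probes with a mean below control was not computed. With carprofen RAB2A, RAB7A, RAB8A and RAB11A fell and RAB5A rose, again 62.5%, against 32.9% of all tested probes (13.3% higher and 19.5% lower). With robenacoxib RAB2A and RAB8A fell, 2 of 8, against 22.3% of all tested probes (9.63% higher and 12.7% lower). The treated and control arrays did not overlap for 6 genes with piroxicam, 8 with carprofen and 4 with robenacoxib, against 47.7%, 47.1% and 41.5% of tested probes. The 8 genes had a median change of -0.12 for piroxicam, -0.0825 for carprofen and -0.0665 for robenacoxib. For all tested probes the medians were -0.02, -0.0227 and -0.0298. For the 614 named genes, each on its brightest tested probe, the medians were -0.00525, -0.0382 and -0.048. In the overall F-test across the drugs 5 of 8 genes passed (RAB2A, RAB5A, RAB7A, RAB8A and RAB11A), against 48.1% of tested probes.

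These shares are descriptions, with no test of the family. The within-group SD of the 8 brightest probes lay between percentiles 0.541 (RAB2A) and 54 (RAB7A) of all tested probes. It was near the middle for RAB7A and RAB8A (48.5) and at percentile 27.5 (RAB5C) or below for the other genes. The part of this spread in the number of calls was not tested. On the spike-in scale 0 genes were called with piroxicam (median 0.052), 7 were higher with carprofen (median 0.262) and 6 were higher with robenacoxib (median 0.233), where 40%, 75.2% and 67.8% of all tested probes were called higher. In the slide-blocked fit 0 genes were called with piroxicam, 1 with carprofen (RAB8A, lower) and 0 with robenacoxib, against 5.19%, 16.7% and 1.4% of all tested probes. The block medians, -0.108, -0.091 and -0.08, were close to the medians without it.

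**Figure D1:**
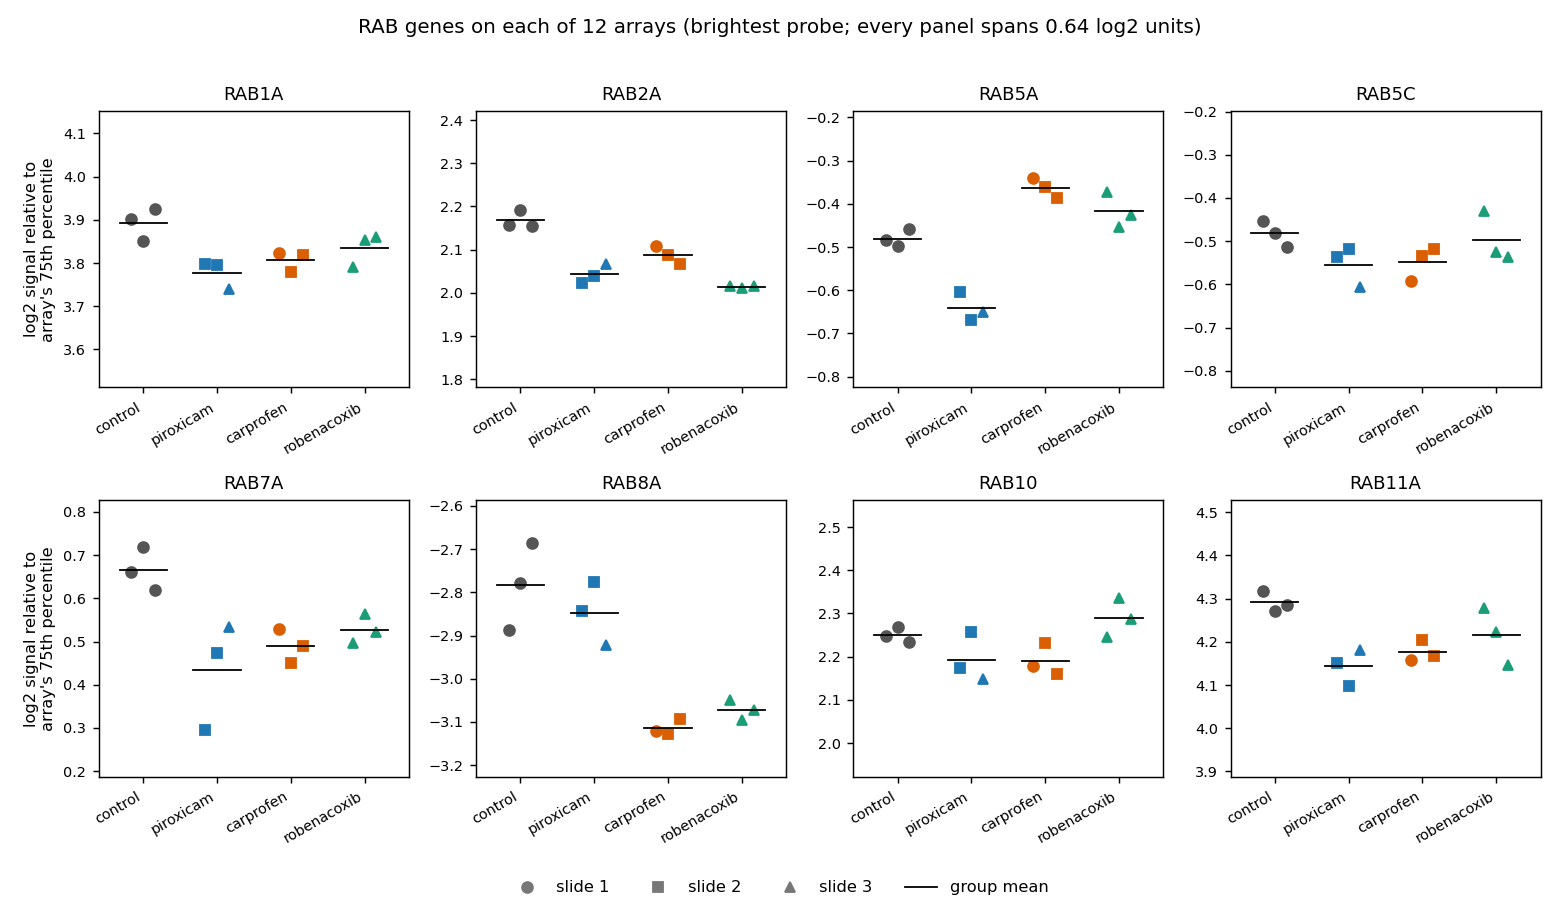
Level of each of the 8 RAB genes on the 12 arrays, in log2 units above the 75th percentile of its array, by group on the x axis; each point is an array, its shape the slide, and the line the group mean. RAB5A is lowest with piroxicam and highest with carprofen, and RAB8A is low with carprofen and robenacoxib.

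RAB5A gave the clearest separation between drugs. This GTPase drives fusion and maturation of early endosomes, the first station of material taken up at the cell surface. On the brighter of its probes the control arrays stood at -0.48, -0.50 and -0.46. The piroxicam arrays stood at -0.61, -0.67 and -0.65, all below control. The carprofen arrays stood at -0.34, -0.36 and -0.39 and the robenacoxib arrays at -0.37, -0.45 and -0.43, all above every control array. RAB5A thus fell by 0.16 with piroxicam (1.12-fold lower, SE 0.029, adjusted p = 0.00357) and rose by 0.12 with carprofen (1.08-fold, SE 0.029, adjusted p = 0.0134). With robenacoxib it differed by 0.063 (95% interval -0.003 to 0.129, adjusted p = 0.161), which did not pass.

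The drug groups were then compared with each other directly. RAB5A was higher with carprofen than with piroxicam by 0.28 (1.21-fold, SE 0.029, adjusted p = 7.65e-05), where 37.6% of all tested probes were called. Within slide 2, which held 2 arrays of each of these groups, the difference was 0.26 (adjusted p = 0.0476). RAB5A was also higher with robenacoxib than with piroxicam, by 0.22 (SE 0.029, adjusted p = 0.000507), where 27.2% of tested probes were called; within slide 3, which held piroxicam 3 and the robenacoxib arrays, it was 0.23 (adjusted p = 0.141). The slide-blocked fit gave 0.26 (adjusted p = 0.00215) and 0.23 (adjusted p = 0.012). On this brighter probe both differences were called under 23 of 23 alternatives fitted to more than 1 slide, with ranges of 0.26 to 0.45 and 0.18 to 0.35. The doses of the drugs were not matched.

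The dimmer RAB5A probe followed the same order of group means. It stood at -1.07 ± 0.023 (mean ± SD, n = 3) in control, -1.17 ± 0.040 with piroxicam, -0.93 ± 0.035 with carprofen and -1.04 ± 0.057 with robenacoxib. On it carprofen exceeded piroxicam by 0.24 (SE 0.036, adjusted p = 0.000633; 0.26 in the slide-blocked fit, adjusted p = 0.00418) and control by 0.14 (SE 0.036, adjusted p = 0.0144). Robenacoxib exceeded piroxicam on it by 0.13 (SE 0.036, adjusted p = 0.0262), a difference that was not called in the slide-blocked fit (0.084, adjusted p = 0.305), unlike that of the brighter probe. Its fall with piroxicam, -0.098, did not pass (adjusted p = 0.0685). The change against control was less firm than the difference between drugs on the brighter probe as well. In the slide-blocked fit RAB5A changed by -0.12 with piroxicam (adjusted p = 0.271) and by 0.14 with carprofen (adjusted p = 0.07; 0.14 within slide 1, adjusted p = 0.131). The rise with carprofen was also not called without control 2, after normexp background correction or in the authors' values.

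RAB5C, a close relative that shares the early endosome, did not show this pattern. Its control arrays stood at -0.45, -0.48 and -0.51 and its carprofen arrays at -0.59, -0.54 and -0.52. RAB5C differed from control by -0.071 with piroxicam (95% interval -0.157 to 0.014), by -0.065 with carprofen (-0.151 to 0.02) and by -0.015 with robenacoxib (-0.101 to 0.07), none called. With normexp and in the authors' values RAB5C instead stood above control with piroxicam, by 0.09 and 0.1, also not called. Carprofen against piroxicam differed by 0.006 (-0.079 to 0.092) for RAB5C, an interval that lies wholly below the interval of the same difference for RAB5A (0.213 to 0.345). Whether the 2 genes differ in response was not tested directly.

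**Figure D2:**
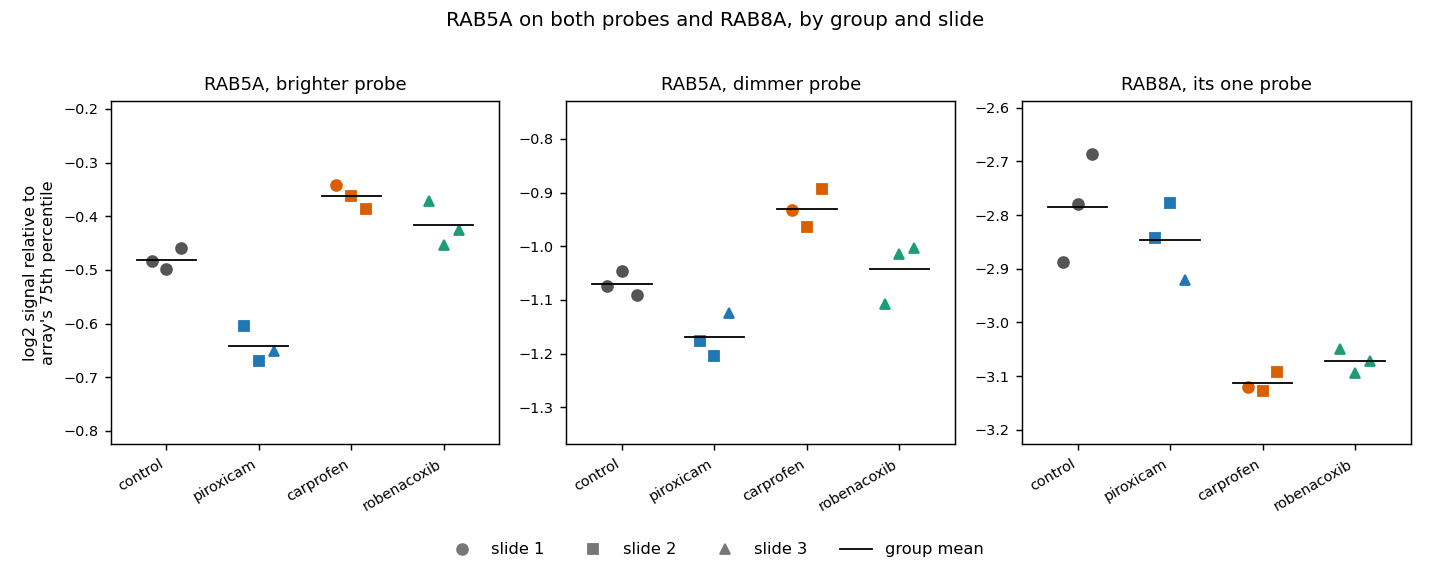
Level of RAB5A on each of its probes and of RAB8A on its single probe, in log2 units above the 75th percentile of its array, by group; points are arrays, shapes are slides and lines are group means. On the brighter RAB5A probe all piroxicam arrays lie below, and all carprofen arrays above, every control array; the carprofen and robenacoxib arrays lie below all others for RAB8A.

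RAB8A had the largest change of the family on the brightest probes. It carries cargo from the Golgi and recycling endosomes to the plasma membrane and takes part in building primary cilia. Its control arrays stood at -2.89, -2.78 and -2.69 and its piroxicam arrays at -2.84, -2.78 and -2.92, which overlapped. The carprofen arrays stood at -3.12, -3.13 and -3.09 and the robenacoxib arrays at -3.05, -3.10 and -3.07, below every control and piroxicam array. RAB8A fell by 0.33 with carprofen (1.26-fold lower, SE 0.051, adjusted p = 0.00128) and by 0.29 with robenacoxib (1.22-fold lower, SE 0.051, adjusted p = 0.00412), and differed by -0.063 with piroxicam (95% interval -0.178 to 0.052, adjusted p = 0.395).

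Slides and settings bore on these RAB8A results in different ways. The fall with carprofen stayed in the slide-blocked fit (-0.34, adjusted p = 0.0206), an estimate from carprofen 1 against the 3 controls of slide 1, which alone gave an adjusted p = 0.141. The fall with robenacoxib was not called in the slide-blocked fit (-0.19, adjusted p = 0.493). On the spike-in scale RAB8A stood at 0.015 with carprofen and 0.012 with robenacoxib, while the median probe stood at 0.322 and 0.27. RAB8A was lower with carprofen than with piroxicam by 0.27 (SE 0.051, adjusted p = 0.00272), and by 0.30 within slide 2 (adjusted p = 0.0411). That difference shrank to -0.09 on the spike-in scale (adjusted p = 0.164), to -0.15 with normexp and quantile normalization (adjusted p = 0.0674), to -0.13 with normexp and 75th-percentile scaling (adjusted p = 0.247) and to -0.18 in the authors' values (adjusted p = 0.0647). With normexp and in the authors' values RAB8A was also called lower with piroxicam than in control (-0.23 and -0.27). Robenacoxib against piroxicam gave -0.22 (SE 0.051, adjusted p = 0.00991), not called in the slide-blocked fit (-0.15, adjusted p = 0.187), with normexp, on the spike-in scale or in the authors' values.

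RAB10, which delivers vesicles such as those with glucose transporters to the cell surface, was not called against control with any drug. On its brighter probe the control arrays stood at 2.25, 2.27 and 2.24 and the robenacoxib arrays at 2.25, 2.34 and 2.29. RAB10 differed from control by -0.057 with piroxicam (95% interval -0.139 to 0.025), by -0.06 with carprofen (-0.142 to 0.021) and by 0.039 with robenacoxib (-0.043 to 0.121). With normexp correction and in the authors' values RAB10 fell with piroxicam by 0.24 to 0.26. On the dimmer probe piroxicam 3 stood at 0.31, below the other arrays. That probe was higher with robenacoxib than with piroxicam by 0.26 in the slide-blocked fit (adjusted p = 0.00633), a contrast with piroxicam 3 alone, and was not called without the block (0.13, adjusted p = 0.0917).

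RAB7A, which brings late endosomes to lysosomes, was lower in the mean with every drug and on each of its probes. On the brighter probe the control arrays stood at 0.66, 0.72 and 0.62. The piroxicam arrays stood at 0.30, 0.47 and 0.53, the carprofen arrays at 0.53, 0.45 and 0.49 and the robenacoxib arrays at 0.50, 0.56 and 0.52, so no treated array reached the lowest control. RAB7A fell by 0.23 with piroxicam (1.17-fold lower, SE 0.057, adjusted p = 0.015) and by 0.18 with carprofen (SE 0.057, adjusted p = 0.0407), while its difference with robenacoxib, -0.14, did not pass (adjusted p = 0.117).

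The dimmer RAB7A probe moved further. Its control arrays stood at -0.03, 0.03 and 0.11, the piroxicam arrays at -0.38, -0.30 and -0.37, the carprofen arrays at -0.12, -0.33 and -0.31 and the robenacoxib arrays at -0.21, -0.32 and -0.23. On this probe RAB7A fell by 0.39 with piroxicam (adjusted p = 0.0016), by 0.29 with carprofen (adjusted p = 0.00585) and by 0.29 with robenacoxib (adjusted p = 0.00885), the largest changes on any of the 14 probes with piroxicam and robenacoxib. Carprofen 1, on the controls' slide, lay nearest to control. In the slide-blocked fit the 3 changes on this probe were -0.18, -0.16 and -0.063, and none was called on either probe. On the brighter probe the piroxicam call ended without control 2, with normexp and 75th-percentile scaling (-0.18, adjusted p = 0.0642), in the authors' values (-0.17, adjusted p = 0.0667) and on the spike-in scale (-0.06, adjusted p = 0.505). There the carprofen call ended with quantile normalization, with normexp, in the authors' values and on leaving out any 1 array other than piroxicam 1 or piroxicam 3.

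RAB2A, which works in traffic between the endoplasmic reticulum and the Golgi, was lower with each drug. Its arrays stood at 2.16, 2.19 and 2.15 in control, 2.02, 2.04 and 2.07 with piroxicam, 2.11, 2.09 and 2.07 with carprofen and 2.02, 2.01 and 2.02 with robenacoxib. No treated array reached the lowest control. RAB2A fell by 0.12 with piroxicam (1.09-fold lower, SE 0.023, adjusted p = 0.00348), by 0.08 with carprofen (1.06-fold, SE 0.023, adjusted p = 0.0235) and by 0.15 with robenacoxib (1.11-fold, SE 0.023, adjusted p = 0.00157). In the slide-blocked fit the changes were -0.10, -0.059 and -0.16, none called (adjusted p = 0.183, 0.229 and 0.192). The carprofen call also ended without control 2, carprofen 2 or carprofen 3, with no filter, and in the authors' values (-0.12, adjusted p = 0.0977). With quantile normalization that change was -0.01 (adjusted p = 0.796).

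RAB1A, which starts the path from the endoplasmic reticulum to the Golgi, had 3 probes. On the brightest the control arrays stood at 3.90, 3.85 and 3.92 and the piroxicam arrays at 3.80, 3.80 and 3.74, with no overlap. RAB1A fell by 0.12 with piroxicam (SE 0.031, adjusted p = 0.0223), and differed by -0.085 with carprofen (adjusted p = 0.062) and -0.057 with robenacoxib (adjusted p = 0.231). The piroxicam fall was called on 3 of 3 probes (-0.099 and -0.19 on the others), while carprofen was called on the other 2 (-0.10 and -0.14) and robenacoxib on 1 (-0.17). The call on the brightest probe ended without control 1, control 3 or piroxicam 3, and in the slide-blocked fit (-0.072, adjusted p = 0.517). It also ended with replicate as a block (adjusted p = 0.0513) and in the authors' values (-0.03, adjusted p = 0.684). With normexp the change was -0.06 under 75th-percentile scaling (adjusted p = 0.555) and -0.03 under quantile normalization (adjusted p = 0.671), neither called.

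RAB11A, the GTPase of recycling endosomes, returns receptors to the cell surface. On its brighter probe the control arrays stood at 4.32, 4.27 and 4.28, the piroxicam arrays at 4.15, 4.10 and 4.18, the carprofen arrays at 4.16, 4.21 and 4.17 and the robenacoxib arrays at 4.28, 4.22 and 4.15. Robenacoxib overlapped control and the other drugs did not. RAB11A fell by 0.15 with piroxicam (1.11-fold lower, SE 0.037, adjusted p = 0.0161) and by 0.11 with carprofen (SE 0.037, adjusted p = 0.0411), and differed by -0.076 with robenacoxib (adjusted p = 0.184). The dimmer probe gave another order: it fell most with carprofen, by 0.18 (adjusted p = 0.00218; -0.17 in the slide-blocked fit, adjusted p = 0.0412), and its difference with piroxicam, -0.072, did not pass. The piroxicam call on the brighter probe ended without control 1 or piroxicam 2, and without control 3 and piroxicam 3 together. It also ended with quantile normalization (-0.11, adjusted p = 0.0602), in the slide-blocked fit (-0.20, adjusted p = 0.166) and on the spike-in scale (0.02, adjusted p = 0.654). The carprofen call ended without any 1 control or carprofen array, without piroxicam 1 or without robenacoxib 2. The carprofen change was -0.01 with quantile normalization (adjusted p = 0.911), -0.06 in the authors' values (adjusted p = 0.524) and -0.13 in the slide-blocked fit (adjusted p = 0.138).

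**Figure D3:**
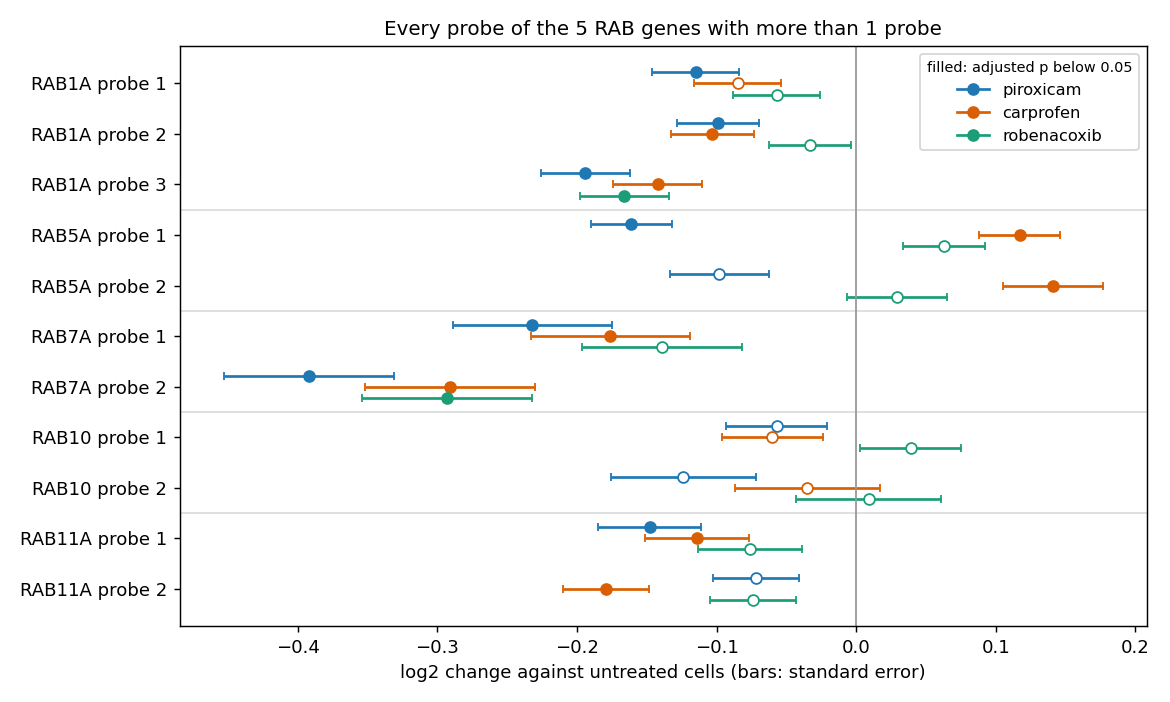
Log2 change against untreated cells (x axis) on each probe of the 5 genes with more than 1 probe, ordered from the brightest probe down within a gene; bars are standard errors and filled points have an adjusted p below 0.05. The RAB1A and RAB7A probes lie below 0 with every drug, and both RAB5A probes lie below 0 with piroxicam and above 0 with carprofen.

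Counted over all 14 probes, piroxicam gave 8 lower and 0 higher calls, carprofen 8 lower and 2 higher, both of RAB5A, and robenacoxib 4 lower and 0 higher, where 27.8%, 32.9% and 22.3% of all tested probes were called in either direction. The slide-blocked fit called 0, 2 and 0 of the 14, where it called 5.19%, 16.7% and 1.4% of all tested probes. On the spike-in scale 1 probe, of RAB7A, was called lower with piroxicam and 0 higher. With carprofen 12 were called higher and with robenacoxib 11. Of all tested probes 40%, 75.2% and 67.8% were called higher on that scale with piroxicam, carprofen and robenacoxib. All 14 probe means lay below control with piroxicam, 12 with carprofen and 10 with robenacoxib. Probes of the same gene correlated across the 12 arrays at r = 0.812 for RAB5A, 0.771 for RAB7A, 0.506 to 0.754 for RAB1A, 0.478 for RAB10 and 0.45 for RAB11A, as a description of arrays that share groups and slides. Whether a probe also binds a close relative of its gene, such as RAB1B or RAB11B, was not tested.

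**Figure D4:**
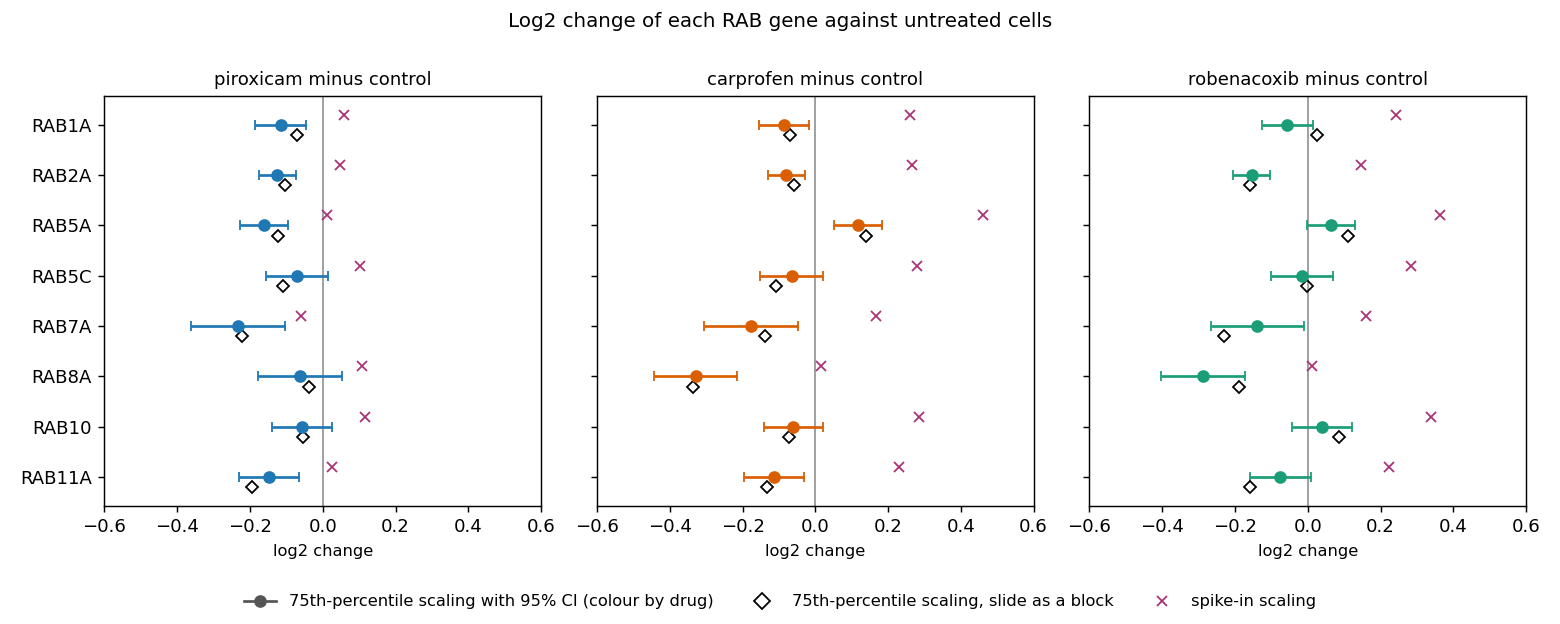
Log2 change of each RAB gene (brightest probe) with piroxicam, carprofen and robenacoxib against control; circles with 95% intervals use 75th-percentile scaling, diamonds come from the slide-blocked fit and crosses use scaling to the spiked-in transcripts. Crosses lie to the right of the circles, by about the shift of the median probe; with robenacoxib the diamond of RAB1A (0.024 against -0.057) and that of RAB11A (-0.16 against -0.076) lie outside the 95% interval of the circle.

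Between the drugs few RAB genes differed. Against piroxicam, carprofen gave 1 higher gene (RAB5A) and 1 lower (RAB8A), and robenacoxib gave the same 2 genes in the same directions; both comparisons share the piroxicam arrays. The shares of all tested probes called higher and lower were 18.4% and 19.2% for carprofen and 13.7% and 13.5% for robenacoxib. Arrays did not overlap for 3 RAB genes in each comparison, against 47.3% and 41.9% of tested probes. In the slide-blocked fit 2 genes (30.4% of probes) and 1 gene, RAB5A (18.3% of probes), were called. Spike-in scaling gave 7 and 6 genes higher, where 41.7% and 31.9% of probes were called higher. Between robenacoxib and carprofen 0 of 8 genes were called by limma, where 8.18% of all tested probes were (4.46% higher and 3.73% lower), and 2 did not overlap, against 27.3%. The slide-blocked fit and spike-in scaling also called 0, against 0.297% of tested probes and 0.603% called higher. At an unadjusted p below 0.05 there were 2 genes: RAB2A (-0.074, 95% interval -0.125 to -0.023) and RAB10 (0.10, 0.018 to 0.181). The share of all tested probes at that looser threshold was not computed, and the shares above are for adjusted p. For this comparison intervals of other genes follow. For RAB5A the 95% interval was -0.12 to 0.012 and for RAB8A -0.074 to 0.156.

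Across the 12 arrays the members did not follow 1 common pattern. RAB2A and RAB7A were most alike (r = 0.719), followed by RAB7A and RAB11A (0.654), while RAB5A and RAB8A ran against each other (r = -0.66). RAB5A and RAB5C correlated at 0.21. Among 606 other named genes, the one most like RAB5A was PTGS2, the inducible cyclooxygenase (r = 0.956), the one most like RAB8A was GALNS, a lysosomal sulfatase (0.943), and the one most like RAB2A was SLC11A1, a metal transporter of phagosomes (0.915). These are the highest of many correlations over 12 arrays that share groups, slides and a scaling.

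Of 264 other genes of vesicle traffic on the lists used, 17 had a named and tested probe. With piroxicam 2 rose and 4 fell, with carprofen 0 rose and 7 fell, and with robenacoxib 1 rose and 4 fell, with medians of -0.0481, -0.0711 and -0.0437. Of all tested probes 12.2% were called higher and 15.6% lower with piroxicam, 13.3% and 19.5% with carprofen, and 9.63% and 12.7% with robenacoxib. RAB4B, RAB22A and RAB27A were among them. RAB4B, which sends cargo on a fast route from early endosomes back to the surface, fell by 0.12 with piroxicam (adjusted p = 0.00625; not called in the slide-blocked fit, adjusted p = 0.164) and by 0.16 with carprofen (adjusted p = 0.00144; -0.15 in the slide-blocked fit, adjusted p = 0.0287). Its arrays stood at -0.13, -0.13 and -0.10 in control, -0.27, -0.29 and -0.28 with carprofen and -0.07, -0.11 and -0.14 with robenacoxib, so that robenacoxib overlapped control and carprofen did not. RAB4B was higher with robenacoxib than with carprofen by 0.17 (adjusted p = 0.00458), not called in the slide-blocked fit (adjusted p = 0.293); its other probe was not called against control. RAB27A, which ties melanosomes to actin motors, differed by 0.09, -0.042 and 0.025 with piroxicam, carprofen and robenacoxib, and RAB22A, an endosomal RAB, by -0.048, 0.013 and 0.106, none called.

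Among the RAB regulators, RABAC1, a membrane protein that helps RABs load onto membranes, fell by 0.21 with carprofen (adjusted p = 0.000936; -0.18 in the slide-blocked fit, adjusted p = 0.0342) and by 0.12 with robenacoxib (adjusted p = 0.0169; slide-blocked adjusted p = 0.531), and GDI2, which keeps inactive RABs soluble, fell by 0.12 with piroxicam (adjusted p = 0.0486; not called in the slide-blocked fit, adjusted p = 0.37). MLPH, the single tested RAB effector and a link between RAB27A and myosin, fell by 0.64 with piroxicam (SE 0.2, adjusted p = 0.0396) but was well above background on 6 of 12 arrays and was not called in the slide-blocked fit. The GTPases RHOA and RAC1, which organise actin, fell with carprofen by 0.12 and 0.15, and RHOA fell by 0.12 with robenacoxib, none called in the slide-blocked fit. On its dimmer probe RHOA was not called with carprofen (-0.07, adjusted p = 0.0693) or robenacoxib (-0.068, adjusted p = 0.096). Among 8 genes of coats, tethers and sorting, VPS52, a subunit of complexes that tether endosome-derived vesicles, fell by 0.34 with carprofen and 0.53 with robenacoxib on its brightest probe, while none of the other 3 probes was called with these drugs. With piroxicam VPS52 fell by 0.15 on that probe (adjusted p = 0.0146) and by 0.17 on another (adjusted p = 0.0301), neither called in the slide-blocked fit. IGF2R, the receptor that sorts enzymes to lysosomes, rose by 0.18 with piroxicam and 0.12 with robenacoxib, and STXBP2, a partner of membrane fusion proteins, rose by 0.20 with piroxicam; of these 3 rises that of IGF2R with piroxicam was called in the slide-blocked fit (adjusted p = 0.0262). SSR1, of the endoplasmic reticulum translocation complex, fell by 0.12 with carprofen on 1 of 2 probes. On the spike-in scale the falls with carprofen of RAB4B (0.188), RABAC1 (0.139), RHOA (0.219), RAC1 (0.196) and SSR1 (0.22) turned to higher values and VPS52 stood at 0.002.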

How the data were processed

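The 12 deposited scanner files hold spot intensity from Feature Extraction 10.7.3.1 (protocol GE1_107_Sep09), per the file headers, with background taken off inside each array and no scaling across arrays. A value table that the authors deposited served as an alternative; its numbers look like log2 values, and the submitters' processing notes name limma 3.24.15. The sources used here do not state how it was corrected and normalized. From log2 of the processed signal, the 75th percentile of the same array was subtracted. Control spots were removed, as were those flagged as outliers; none of the RAB spots was flagged and no spot was saturated. Probes called well above background throughout at least 1 group of 3 arrays (31998) were fitted with limma 3.58.1 in R 4.3.3, lmFit and eBayes over all 4 groups with 8 residual degrees of freedom, two-sided, threshold 0.05. The procedure was tested on simulated data. Precision is limited by the number of arrays, with a median SE of 0.0526 for a change. Gene names, and nothing else, were taken from RefSeq's table for assembly UU_Cfam_GSD_1.0 of the dog, which named 1313 probes (3.01%). The brightest tested probe by mean stood for a gene. Alternatives were quantile normalization, normexp correction (offset 50, on the median spot signals) with 75th-percentile or quantile scaling, scaling to 8 spiked-in E1A probes, other filters, the authors' values, slide or replicate as a block, probe means and leaving out arrays. Genes named beside the members were up to 4 called genes of each traffic list, by size of change, the most alike gene for 4 members with the largest F, and cell type markers; RAB22A and RAB27A were named to complete a short list. Some genes that these rules select are not reported here. The members, lists and tests were chosen with earlier results of these data known.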

Additional observations from a re-analysis of the deposited data

How the results depend on the processing

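The count of RAB genes called was 5 with piroxicam, 5 with carprofen, 2 with robenacoxib, 2, 2 and 0 for carprofen against piroxicam, robenacoxib against piroxicam and robenacoxib against carprofen, and 5 in the F-test. Slide as a block gave 0, 1, 0, 2, 1 and 0, and 2 in the F-test. Spike-in scaling gave 0 with piroxicam, 6 (all higher) with robenacoxib, 7 for carprofen against piroxicam and 6 for robenacoxib against piroxicam. With carprofen the count was 2 with quantile normalization, normexp and 75th-percentile scaling, no filter, or a replicate block, 1 with normexp and quantile normalization or in the authors' values, and 3 without control 3 and piroxicam 3, which also gave 3 with piroxicam. Probe means gave 4 with robenacoxib and 1 for robenacoxib against carprofen, and quantile normalization gave 1 there and 4 for carprofen against piroxicam. Normexp and 75th-percentile scaling gave 1 for each drug against piroxicam, and no filter gave 3 in the F-test. Leaving out 1 array gave 3 to 5 with piroxicam, 1 to 5 with carprofen, 2 to 3 with robenacoxib and 3 to 6 in the F-test. Apart from the blocked and spike-in fits, the share of all tested probes called under these alternatives was not computed. Nor was it computed for the F-test under any alternative. A lower count there can therefore not be told from fewer calls across the array. Spike-in scaling turned the direction for piroxicam of RAB1A (0.06), RAB2A (0.05), RAB5A (0.01) and RAB11A (0.02), and, called under neither scaling, of RAB5C (0.10), RAB8A (0.11) and RAB10 (0.11); for carprofen of RAB1A and RAB2A (0.26 each), RAB5C and RAB10 (0.28 each), RAB7A (0.17), RAB8A (0.02) and RAB11A (0.23); for robenacoxib of RAB1A (0.24), RAB2A (0.15), RAB5C (0.28), RAB8A (0.01) and RAB11A (0.22), and, called under neither, RAB7A (0.16); and of RAB10 for carprofen against piroxicam (0.17). Called under neither scaling, the direction of RAB2A for robenacoxib against piroxicam also turned (0.099). So did those of RAB1A (-0.016), RAB7A (-0.007), RAB8A (-0.003) and RAB11A (-0.006) for robenacoxib against carprofen. By construction spike-in scaling shifts all genes of an array together. The cause of the other differences was not tested.

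No pairing of the arrays by replicate number was seen. Same-numbered arrays deviated from their group means with correlations of -0.449 to 0.2. In 7 of 36 array comparisons the highest value was for the own number. With 3 arrays a group, this check cannot show whether same-numbered cultures were handled together. With the replicate block the counts were 4 with piroxicam, 2 with carprofen, 2 with robenacoxib, and 2, 3 and 0 between the drugs, where 23.3%, 28.2%, 17.2%, 34%, 23.3% and 4.38% of all tested probes were called. Fits within 1 slide rest on 4 arrays and kept the calls of RAB5A and RAB8A on slide 2 and none on slides 1 and 3.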
